A study of Homo sapiens with 4 samples.

Results

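The NODAL pathway was followed through 10 genes by RNA-seq of NT2, a line of human embryonal carcinoma cells that resembles primed pluripotent cells. The genes were chosen by symbol: the ligand NODAL, its coreceptor TDGF1, the inhibitors LEFTY1, LEFTY2 and CER1, the receptors ACVR1B and ACVR2B, the signal carriers SMAD2 and SMAD3, and the nuclear partner FOXH1. Each symbol matched 1 row, so 10 of the 62696 rows in the count tables are described. Per the labels, 1 library came from wild type NT2 cells with an empty vector and 3 from NT2 cells with a HYDIN2 knockdown, numbered replicates 1 to 3. The headers of the count columns name a LacZ control and GKAP_KIF27 sets instead, so it is uncertain whether the counts belong to these labels; the groups here follow the labels. All were grown in the same serum medium and read as total RNA after removal of ribosomal RNA. The labels name neither the knockdown construct nor whether the replicates were separate cultures, so their spread may be technical. The empty vector library, called the control library from here on, is the only one of its group, so its own spread is unknown and no p-value per gene is given.

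NODAL is a secreted protein of the TGF-beta superfamily. With its coreceptor TDGF1 (also called CRIPTO) it binds a pair of serine and threonine kinase receptors, a type I chain such as ACVR1B and a type II chain such as ACVR2B. The active receptor phosphorylates SMAD2 and SMAD3, which enter the nucleus with SMAD4 and bind DNA beside FOXH1. LEFTY1 and LEFTY2 are targets of the pathway that block it from outside the cell, and CER1 binds and traps the ligand. In primed pluripotent cells the pathway helps to sustain NANOG expression, and stronger activity directs cells toward mesoderm and endoderm.

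Library totals ran from 25181737 counts in the control library to 62904698 in the library labelled knockdown replicate 1. HYDIN2, the targeted gene, is annotated as a transcribed unprocessed pseudogene, and sharing of its reads with other genes was not examined. HYDIN2 had 0.5 CPM (counts scaled to 1e6 per library) in the control library, from 12 counts. It had 2.41, 1.88 and 0.352 CPM in the labelled replicates 1, 2 and 3, from 150, 112 and 11 counts, which is a log2 difference of 2.17, 1.82 and -0.46. The target was thus higher in replicates 1 and 2, against their label and beside the mismatch in column names, and every direction here is that of libraries labelled knockdown. Replicate 3 stood apart: 1803 of 16087 genes lay at least 2-fold from all other libraries there, against 8 and 6 genes for replicates 1 and 2. Each result is therefore given by library. Of 12 embryonal carcinoma markers, 11 had at least 1 CPM in each library and ZFP42 had 2 to 4 counts. DNMT3B, a DNA methyltransferase of pluripotent cells, was the 1 of them called by the rule of the next paragraph, lower at 340, 350 and 349 CPM against 795. Genes of longer transcripts read higher in the libraries labelled knockdown: across 15485 genes, which are not independent replicates, the log2 difference and transcript length had Spearman correlations of 0.347, 0.298 and 0.46 for replicates 1, 2 and 3.

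A gene counted as called if all 3 libraries labelled knockdown differed from the control library by a log2 CPM of 1 or more (2-fold), all upward or all downward. All 10 genes passed the minimum of a mean CPM of 1. LEFTY2 was called higher, and 0 of the 10 were called lower. Across the 15880 genes tested, 3.65% were called higher and 2.72% lower, so 1 call among 10 is no finding about the set as a whole. Against the control library, 4 of the 10 (LEFTY2, ACVR2B, SMAD2, SMAD3) lay above it in all 3 libraries, 2 (NODAL, TDGF1) below, and 4 on both sides. Over all genes tested those shares were 30.1% above and 34.2% below.

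**Figure D1:**
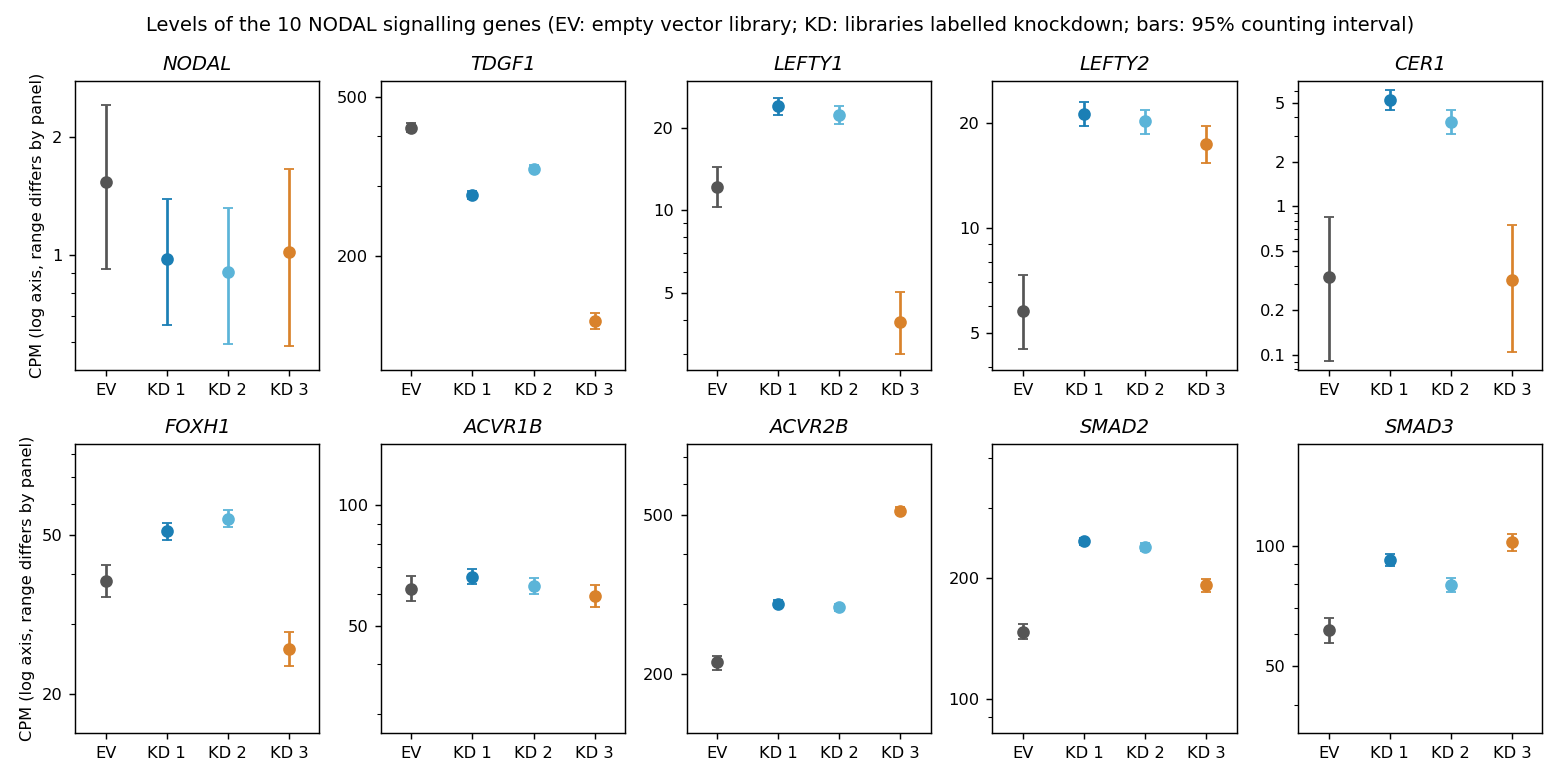
CPM of the 10 genes on log axes, whose range differs by panel, in the empty vector library (EV) and the 3 libraries labelled knockdown (KD); points are single libraries and bars are 95% counting intervals. LEFTY2 is higher in all 3 KD libraries, while LEFTY1 and CER1 separate KD 1 and KD 2 from KD 3.

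NODAL itself was scarce. The gene (ENSG00000156574.10; chromosome 10, 70432315 to 70447951, minus strand of GRCh38) had 37 counts in the control library and 61, 54 and 32 in the labelled replicates 1, 2 and 3. These counts correspond to 1.54 CPM against 0.98, 0.905 and 1.02 CPM. All 3 libraries labelled knockdown lay below the control library and close together, at 0.97 ± 0.0605 CPM (SD, n = 3). The mean log2 difference was -0.65 ± 0.09 (SD, n = 3). Counting error was larger than that spread: the ratios to the control library were 0.636 (95% interval 0.345 to 1.20), 0.587 (0.313 to 1.12) and 0.665 (0.318 to 1.37). Each interval included 1, so a difference in NODAL was not detectable at this depth. Removing the transcript length and GC trends moved the mean to -0.26, or to -0.47 with the median transcript length of each gene.

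The 5 genes whose 4 log2 values, centred on their mean, lay nearest to those of NODAL were ACAA1, HPS3, PRMT7, SLC8A2 and MCAT, at root mean square distances of 0.022 to 0.0334. Among 14817 genes with a symbol, ACVR1B ranked 4053 by this distance and CER1 14787, the extremes among the other 9 pathway genes. With 4 libraries and 32 to 61 NODAL counts this is a description only.

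TDGF1, the coreceptor that lets NODAL bind its receptors, had the highest level per exon length of the 10. It lies on chromosome 3 (46574534 to 46582463, plus strand; ENSG00000241186.10). Its level was 420 CPM in the control library and 285, 331 and 138 CPM in the labelled replicates 1, 2 and 3. It was below the control library in every one of them, at ratios of 0.677 (0.654 to 0.701), 0.789 (0.762 to 0.816) and 0.328 (0.312 to 0.346). Only replicate 3 passed 2-fold against the control library, and the mean log2 difference was -0.84 ± 0.68 (SD, n = 3), or -0.45 without replicate 3. TDGF1 was also at least 2-fold lower in replicate 3 than in each of the other 3 libraries, just past the threshold against replicate 1 at a ratio of 0.485 (0.462 to 0.508). Beside it, 5.92% of 16087 genes lay at least 2-fold below and 5.28% at least 2-fold above all other libraries in replicate 3. LEFTY1 was the other of the 10 that did so, and 0 of the 10 lay above.

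Reads of TDGF1 can be shared with processed copies of the gene. Of the 2954 different 50-base windows in annotated TDGF1 transcripts, 34% also occur in TDGF1P3, a transcribed copy on chromosome X. TDGF1P3 had 18 counts in the control library and 51, 76 and 4 in the labelled replicates, against 10086, 17722, 19785 and 4311 for TDGF1. The other 6 numbered copies had 0 to 5 counts in any library. LRRC2, annotated on the opposite strand over the same place, had 50, 318, 375 and 22 counts in the same order. AC104304.1, a protein-coding gene annotated there on the same strand as TDGF1, had 10, 49, 67 and 10 counts. The kit marks strand per the labels, but the strand setting of the counting is not given in the sources used here.

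LEFTY2 and LEFTY1 are neighbouring genes on the minus strand of chromosome 1, at 225936598 to 225941489 (ENSG00000143768.13) and 225886282 to 225911382 (ENSG00000243709.1). Per GENCODE 29 on GRCh38, the 1101 coding bases of the 2 genes were identical at 1070 positions (97.2%) without gaps. The longest identical stretch was 300 bases, and 26.8% of the 50-base windows of LEFTY1 transcripts and 20.7% of those of LEFTY2 occur in the other gene. Counts of the pair can therefore be partly exchanged, and the division between them is uncertain. Genes annotated on the same strand over LEFTY1 (AL117348.2) and LEFTY2 (AL117348.1) had 0 counts and 0 to 4 counts per library.

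LEFTY2 rose in every library labelled knockdown. It had 139 counts in the control library, or 5.79 CPM, against 1322, 1204 and 545 counts, or 21.2, 20.2 and 17.4 CPM, in the labelled replicates 1, 2 and 3. The 3 libraries labelled knockdown all lay above the control library, as they did for 30.1% of all genes tested. They lay close together at 19.6 ± 1.95 CPM (SD, n = 3). The ratios were 3.67 (2.86 to 4.77), 3.48 (2.71 to 4.53) and 3.01 (2.31 to 3.98), and the log2 difference averaged 1.75 ± 0.15 (SD, n = 3). That mean lay at percentile 98.4 of all genes tested. The SD holds only the spread of the 3 libraries labelled knockdown, each set against the same control library. LEFTY2 was called under each scaling, prior count, trend removal and omitted library that was run, and the mean was never below 1.69. None of these settings changed the division of reads between LEFTY1 and LEFTY2. In replicate 3 the pair together had 21.4 CPM against 18 CPM in the control library, less than 2-fold, so the call rests on that uncertain division.

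LEFTY1 did not follow its neighbour. Its level was 12.2 CPM in the control library, 23.9 and 22.3 CPM in the labelled replicates 1 and 2, and 3.94 CPM in replicate 3, from 294, 1489, 1330 and 123 counts. Replicates 1 and 2 were above the control library at ratios of 1.95 (1.63 to 2.35) and 1.82 (1.52 to 2.19), and replicate 3 was below it at 0.321 (0.235 to 0.436). The mean log2 difference was 0.07 ± 1.47 (SD, n = 3), within the spread between libraries. Without replicate 3 it was 0.91.

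Within each library, where no scaling is needed, LEFTY1 made up 67.9% of the counts of the pair in the control library (95% Clopper-Pearson interval 61.2% to 74.1%). Replicates 1 and 2 had shares of 53% (50.3% to 55.6%) and 52.5% (49.7% to 55.3%), and that of replicate 3 was 18.4% (14.4% to 23%). It was lower in all 3 libraries labelled knockdown, with intervals that did not reach that of the control library. The pair together had 18 CPM in the control library and 45.1, 42.4 and 21.4 CPM in replicates 1, 2 and 3, so the sum in replicate 3 was near the control level while its division was not. Per NODAL count there were 11.7 LEFTY counts in the control library (7.27 to 20), 46.1 (32.2 to 68.3), 46.9 (32.1 to 71.5) and 20.9 (12.7 to 36.9) in the labelled replicates.

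**Figure D2:**
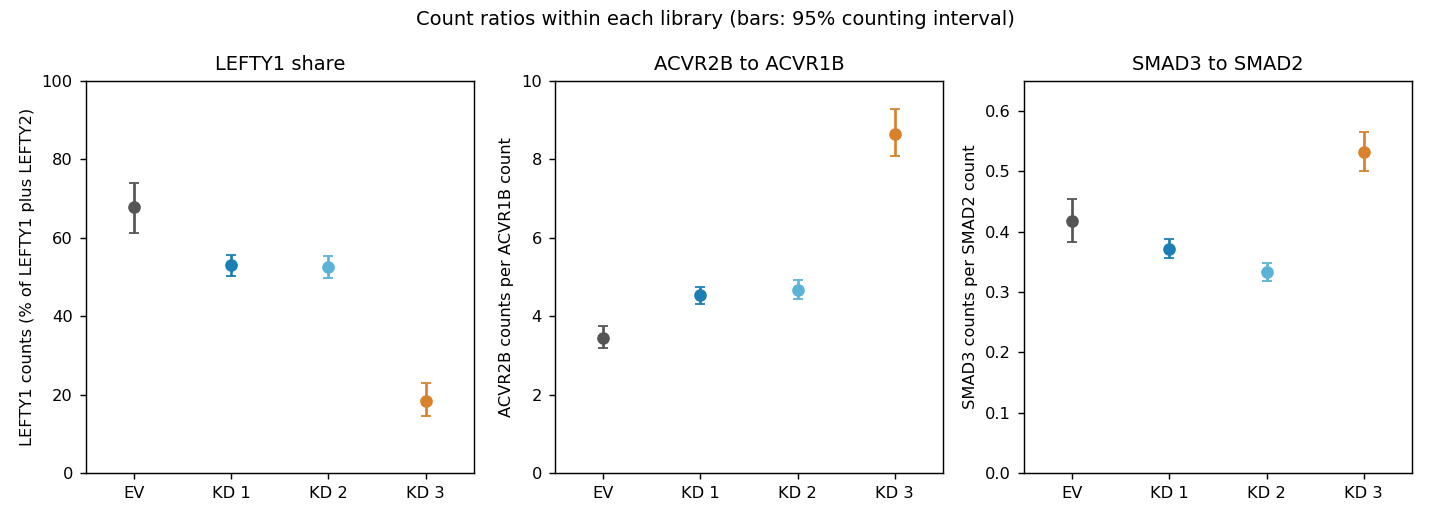
Ratios of counts within each library: LEFTY1 as a percentage of LEFTY1 plus LEFTY2, ACVR2B per ACVR1B count and SMAD3 per SMAD2 count, in the empty vector library (EV) and the 3 libraries labelled knockdown (KD), with 95% counting intervals. KD 3 is lowest for the LEFTY1 share and highest for the other 2 ratios.

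CER1 showed the widest swing. Its gene (ENSG00000147869.5) spans 14719724 to 14722717 of chromosome 9, minus strand. There were 8 counts in the control library and 324, 222 and 10 in the labelled replicates 1, 2 and 3, which gave 0.333, 5.2, 3.72 and 0.32 CPM. Replicates 1 and 2 were thus high, and replicate 3 was level with the control library. The ratios were 15.6 (5.98 to 58) and 11.2 (4.24 to 41.7) for replicates 1 and 2, and 0.961 (0.207 to 4.84) for replicate 3, where no difference was detectable at this depth. CER1 was not called, and its mean log2 difference of 2.35 ± 2.1 (SD, n = 3) rested on replicates 1 and 2. Without replicate 3 the mean was 3.55 and CER1 was called beside LEFTY2. The rule was then easier to pass: over all genes, 1542 were called higher without replicate 3, against 580 with it.

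The start site regions of CER1 and NODAL are shown, because the 2 genes are extracellular partners of opposite effect and only CER1 varied widely. Both come from RefSeq (GRCh38.p14), 5′ to 3′ on the minus strand, from 250 bases before the start site to 50 after it. The CER1 region is chr9:14722684-14722983 and the NODAL region is chr10:70441632-70441931. Capitals mark matches to CAGAC, read as GTCTG on the opposite strand, the short box that SMAD proteins bind, and to AATNNACA, read as TGTNNATT on the opposite strand, a loose form of the FOXH1 motif.
CER1: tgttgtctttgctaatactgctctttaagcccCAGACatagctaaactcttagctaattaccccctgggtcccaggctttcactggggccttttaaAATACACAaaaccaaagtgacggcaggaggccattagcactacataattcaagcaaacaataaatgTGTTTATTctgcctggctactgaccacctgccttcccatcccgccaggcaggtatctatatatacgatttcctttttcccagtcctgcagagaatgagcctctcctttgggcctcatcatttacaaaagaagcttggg
NODAL: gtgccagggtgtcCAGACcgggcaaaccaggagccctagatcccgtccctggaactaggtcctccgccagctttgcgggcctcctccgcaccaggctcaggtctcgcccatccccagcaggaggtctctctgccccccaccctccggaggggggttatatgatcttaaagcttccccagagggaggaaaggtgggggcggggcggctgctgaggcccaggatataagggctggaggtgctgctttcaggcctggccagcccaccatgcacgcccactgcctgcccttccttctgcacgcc
CER1 held 1 SMAD box at -218 and 2 FOXH1 patterns at -154 and -88 from the start site, counted to the first base of each, with no overlap among them. NODAL held 1 SMAD box at -237 and 0 FOXH1 patterns. Among 34943 human promoter windows of this length, 45.3% held a SMAD box, 11.1% a FOXH1 pattern and 4.87% both. A match describes these letters only and is not a binding site. RefSeq windows were found for 6 of the 10 genes and not for TDGF1, LEFTY1, LEFTY2 or FOXH1. Of the genes not shown, ACVR1B held a SMAD box, and SMAD3 held SMAD boxes and, in another window, a FOXH1 pattern. Windows of ACVR2B and SMAD2 held neither.

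The type I receptor ACVR1B, also known as ALK4, was the steadiest of the set. It lies on chromosome 12 (51951667 to 51997078, plus strand; ENSG00000135503.13). Its level was 61.9 CPM in the control library and 66.3, 62.8 and 59.3 CPM in the labelled replicates. The values overlapped, with a mean log2 difference of 0.02 ± 0.08 (SD, n = 3). All 3 ratios had intervals that included 1, and together those intervals ran from 0.869 to 1.17.

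ACVR2B, the type II receptor, lies on chromosome 3 (38453851 to 38493142, plus strand; ENSG00000114739.14). It had 214 CPM in the control library and 300, 294 and 513 CPM in the labelled replicates 1, 2 and 3. All 3 lay above the control library, and replicate 3 stood well above the other 2. Its ratio to the control library was 1.4 (1.34 to 1.47), 1.38 (1.32 to 1.44) and 2.4 (2.3 to 2.51), for a mean log2 difference of 0.74 ± 0.46 (SD, n = 3), not called. The longest ACVR2B transcript has 11821 nt. After removal of trends on length and GC the mean was -0.04, and -0.22 with the median transcript length of each gene in their place. Per ACVR1B count there were 3.45 ACVR2B counts (3.18 to 3.75) in the control library and 4.53 (4.32 to 4.75), 4.68 (4.45 to 4.92) and 8.66 (8.09 to 9.28) in the replicates. ACVR2B-AS1, on the opposite strand, had 151 counts against 5129 for ACVR2B in the control library.

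SMAD2 and SMAD3, which carry the receptor signal to the nucleus, were both higher in every library labelled knockdown, by less than 2-fold. SMAD2 (ENSG00000175387.16; minus strand of chromosome 18, 47808957 to 47931146) was at 147 CPM in the control library and 248, 240 and 192 CPM in the labelled replicates 1, 2 and 3. Its mean log2 difference was 0.61 ± 0.2 (SD, n = 3). SMAD3 (ENSG00000166949.17; chromosome 15, 67063763 to 67195195, plus strand) had 61.5 CPM against 92.1, 79.7 and 102 CPM, a mean log2 difference of 0.56 ± 0.18 (SD, n = 3). For both genes all 3 libraries labelled knockdown lay above the control library, as they did for 30.1% of all genes tested. Each ratio interval, which covers counting error only, lay above 1, but neither gene was called. The 2 genes differed in which library was highest: replicate 1 for SMAD2 and replicate 3 for SMAD3.

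The SMAD2 value depends on how transcript length is taken. Its longest annotated transcript has 34526 nt and its median coding transcript 1378 nt. The mean log2 difference of SMAD2 after trend removal was -0.54 with the first length and 0.63 with the second; for SMAD3 it was 0.23 and 0.71. SMAD3 counts per SMAD2 count were 0.418 (0.383 to 0.455) in the control library, 0.372 (0.356 to 0.388) and 0.333 (0.318 to 0.349) in replicates 1 and 2, and 0.533 (0.501 to 0.566) in replicate 3. No 50-base window was shared between annotated transcripts of the 2 genes. The list of 4 SMAD genes gave 0 calls, with SMAD4, the common partner, at a mean log2 difference of 0.44 ± 0.19 (SD, n = 3) and the inhibitory SMAD7 at 0.25 ± 0.3 (SD, n = 3).

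FOXH1, the forkhead factor that brings SMAD2 and SMAD3 to NODAL targets, lies on chromosome 8 (144473412 to 144476335, minus strand; ENSG00000160973.8). It had 38.4 CPM in the control library, 51.2 and 55 CPM in the labelled replicates 1 and 2, and 26 CPM in replicate 3. Replicates 1 and 2 lay above the control library, at ratios of 1.33 (1.2 to 1.48) and 1.43 (1.29 to 1.59). Replicate 3 lay below it, at 0.675 (0.589 to 0.773). FOXH1 was not called, and its mean log2 difference of 0.12 ± 0.6 (SD, n = 3) lay within the spread between libraries.

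**Figure D3:**
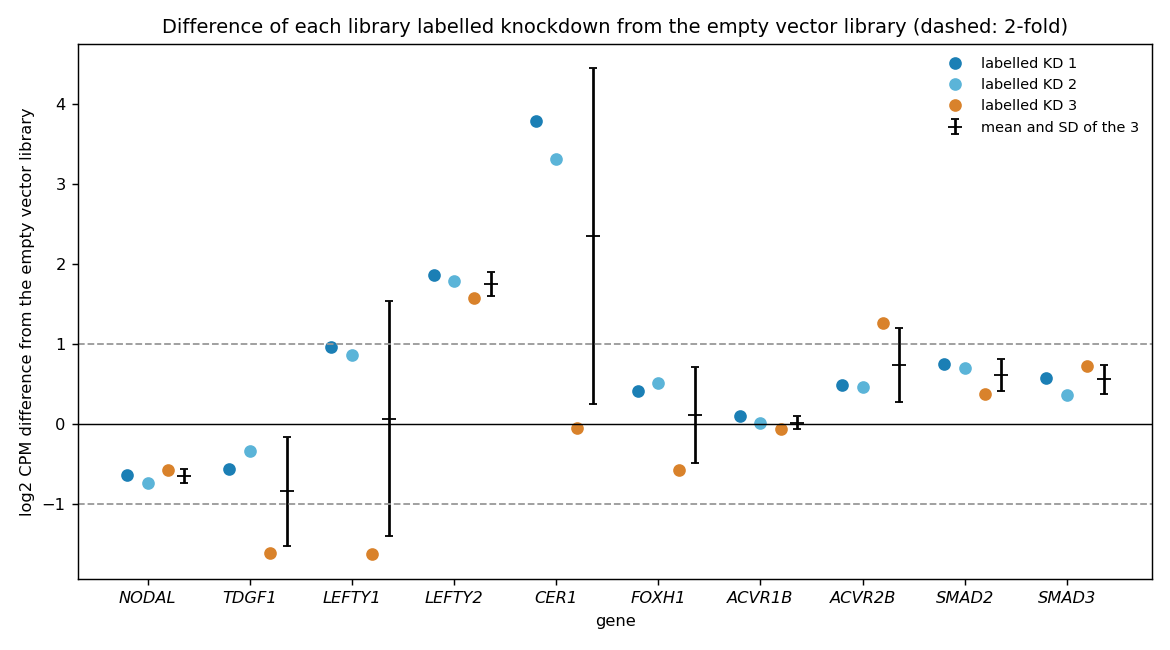
Log2 CPM difference of each library labelled knockdown from the control library for the 10 genes, with the mean and SD of the 3 in black; dashed lines mark 2-fold. LEFTY2 is the only gene with all 3 points past the upper line, and 0 genes have all 3 past the lower one.

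Levels of different genes were compared per kilobase of annotated exons. On this scale TDGF1 led in all 4 libraries, at 140 CPM per kilobase in the control library and 94.7, 110 and 45.9 in the labelled replicates 1, 2 and 3. NODAL (0.91 CPM per kilobase) and CER1 (0.274) were the lowest in the control library. Their order was turned in replicates 1 and 2, where CER1 had 4.28 and 3.06 CPM per kilobase against 0.579 and 0.534 for NODAL, and not in replicate 3 (0.263 against 0.605). FOXH1 and ACVR2B followed TDGF1 in the control library, at 15.4 and 13.6 CPM per kilobase. In replicate 3 they were far apart, with ACVR2B at 32.6 and FOXH1 at 10.4, the same as ACVR1B. The order depends on the length used. Per kilobase of the median coding transcript, the control library had 227 CPM for TDGF1, 107 for SMAD2, 90.4 for SMAD3, 34.7 for ACVR1B, 18.1 for ACVR2B and 15.4 for FOXH1. On that scale SMAD2 passed TDGF1 in replicate 1 (180 against 154), and SMAD3 (150) and SMAD2 (139) passed it in replicate 3 (74.5). NODAL and CER1 had the lowest values in all 4 libraries on both scales.

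The wider pathway was described with 46 further genes in lists by role. Of these, 33 passed the expression minimum: 2 were called higher, INHBA and PMEPA1, and 0 were called lower. Beside the 3.65% and 2.72% of all genes tested, these few calls are no finding about the lists. The median of their mean log2 differences was 0.44, against -0.02 over all genes tested. In all 3 libraries labelled knockdown, 18 of the 33 (54.5%) lay above the control library and 6 (18.2%) below it, against 30.1% and 34.2% of all genes tested. Transcript length moves with such values, as given above, and its part in them was not tested. The following genes were at 0 counts in at least 1 library: the ligands GDF1 and INHBB, the coreceptors CFC1 and CFC1B, the inhibitor DAND5, and the targets TBXT, LHX1, FOXA2 and HHEX. GDF1 and CFC1B were listed at 0 in all 4.

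INHBA encodes the subunit of activin A, a ligand that acts through ACVR1B and ACVR2B without TDGF1. It rose from 3.83 CPM in the control library to 16.5, 15.3 and 9.03 CPM in the labelled replicates 1, 2 and 3, a mean log2 difference of 1.77 ± 0.47 (SD, n = 3). PMEPA1, a target that dampens SMAD signalling, rose from 21 CPM to 47.5, 45.9 and 54.5 CPM (1.22 ± 0.13, SD, n = 3). That all 3 libraries lay above the control library for both genes follows from the rule that called them. It held for 30.1% of all genes tested. With length and GC trends removed, FST and PMEPA1 but not INHBA were called with the longest transcript, and INHBA alone with the median transcript. GDF3, a ligand related to NODAL that was picked out after its values were seen, was not called. It had 653 CPM in the control library and 151, 163 and 346 CPM in the replicates, and missed the call only in replicate 3, at a log2 difference of -0.91.

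Of the 7 receptors listed, 0 were called. ACVR2A, the other type II receptor, had 19.2 CPM in the control library and 36.7, 35.6 and 33.9 CPM in the replicates, a mean log2 difference of 0.88 ± 0.06 (SD, n = 3). ACVR1C, an alternative type I receptor, had 10.1 CPM against 20.1, 21.5 and 4.99 CPM. Its replicate 3 lay at least 2-fold below the other 3 libraries, as TDGF1 and LEFTY1 did. In the convertase list, FURIN and PCSK6, which cut the NODAL precursor, had mean log2 differences of 0.18 ± 0.06 and -0.04 ± 0.07 (SD, n = 3). PCSK5, the remaining gene of that list, was higher at 0.91 ± 0.15 (SD, n = 3) and not called. It had 6.04 CPM in the control library and 12.6, 11.7 and 10.2 CPM in the replicates.

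Replicate 3 lay at least 2-fold above all 3 other libraries for 4 of the 33 genes and below them for 1, beside the 5.28% and 5.92% of all genes given above. Those above included EOMES and MIXL1, 2 of the 4 nuclear partners tested, and FST, 1 of the 5 inhibitors tested. EOMES, a T-box factor of early mesendoderm, had 0.417 CPM in the control library, 1.16 and 0.838 CPM in the labelled replicates 1 and 2, and 7.49 CPM in replicate 3. FST, which binds activin, had 22.7, 41.8, 45.2 and 107 CPM in the same order. NANOG had 502 CPM in the control library, 820 and 817 CPM in replicates 1 and 2 and 323 CPM in replicate 3. The 8 mesoderm and endoderm markers summed to 36.8 CPM in replicate 3, against 8.79 in the control library and 14.3 and 11.6 in replicates 1 and 2; FOXA2 had 2 counts in replicate 3, and GSC was lowest there, at 4 counts. The 10 neural markers summed to 191 CPM in the control library and 368, 346 and 322 in the replicates, and PAX6 and MAP2 were called higher. PAX6 had 0 counts in the control library, and NEUROG2 had 0 there and in replicate 3. The 7 fibroblast markers summed to 504, 645, 634 and 420 CPM, of which THY1 had 362, 382, 394 and 210 CPM. DCN was at 0 to 2 counts and PDGFRB was called higher. COL3A1 was lower in replicates 1 and 2, at 0.739 and 0.57 CPM against 4.04 in the control library and 6.21 in replicate 3. In such bulk RNA, fewer cells of a type and less RNA per cell cannot be told apart. The part of these markers in the levels of TDGF1, LEFTY1, CER1 and FOXH1 was not tested.

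**Figure D4:**
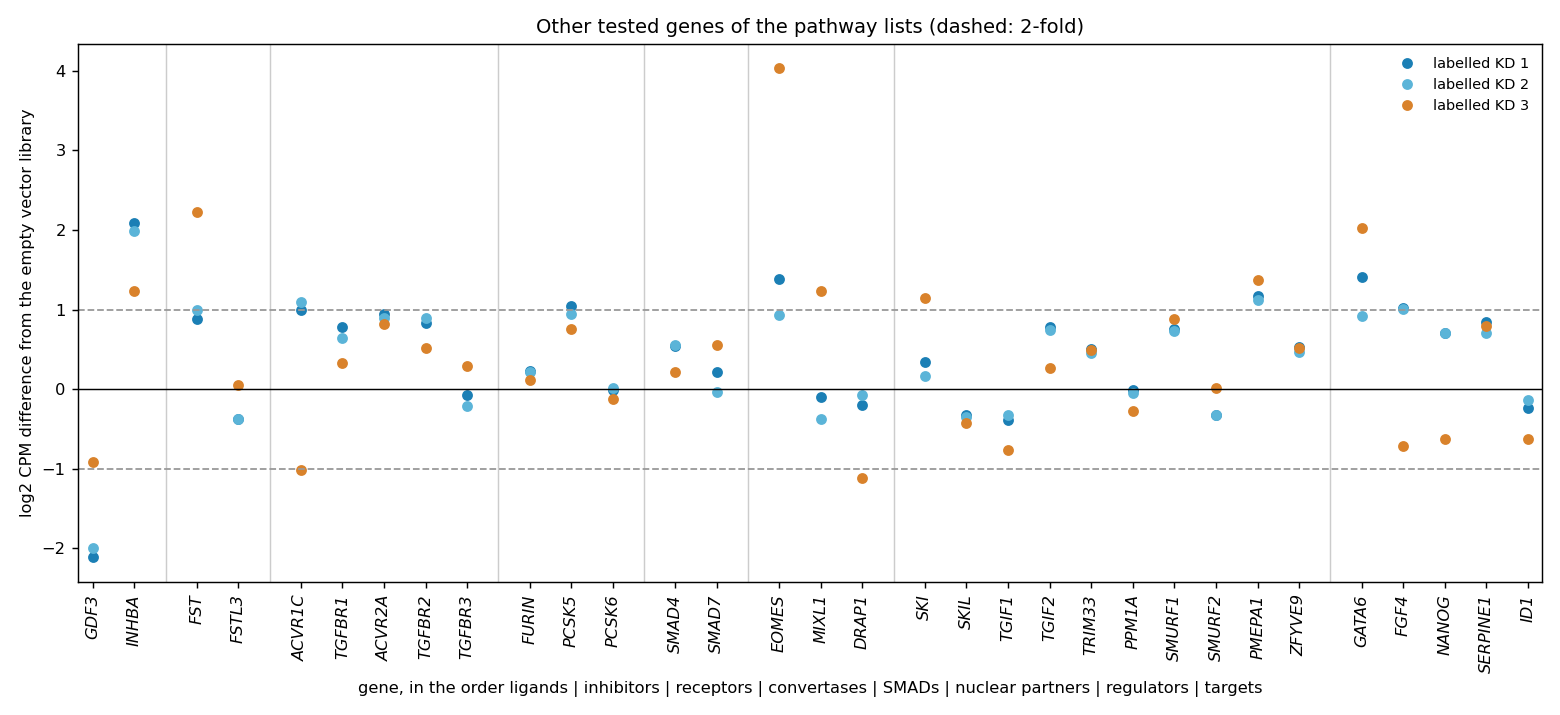
Log2 CPM difference from the control library for tested pathway genes beside the 10, by role, in the 3 libraries labelled knockdown (KD); dashed lines mark 2-fold. Points of KD 1 and KD 2 lie close together, and KD 3 lies apart from them for ACVR1C, EOMES, MIXL1, FGF4 and NANOG.

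Tests across all genes take their spread from the 3 libraries labelled knockdown and compare 1 library with them, not the conditions. edgeR's quasi-likelihood test with Benjamini-Hochberg adjustment called 0 of the 10 genes and 0 of 26029 genes (0%). At an unadjusted p under 0.05 it had 1 of the 10, LEFTY2, beside 11.6% of all genes. The Wald test of DESeq2 called LEFTY2 alone among the 10, where it called 1.72% of 15725 genes.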

How the data were processed

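RNA of 4 NT2 libraries was measured. For every library the authors deposited unnormalized read counts over 62696 genes. STAR 2.7.11b, featureCounts 2.0.6, DESeq2 and GRCh38 are named, without their roles, in the submitters' processing notes. Strand setting and annotation release are not given in the sources used here. Per the file headers, the count columns carry other names (a LacZ control and GKAP_KIF27 sets); groups came from the sample titles.

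Counts were scaled with TMM factors from edgeR 4.0.16 (R 4.3.3), computed on genes kept by filterByExpr, and log2 CPM used a prior count of 2. Genes entered at a mean of the 2 group mean CPMs of at least 1. Intervals are 95%, exact Poisson for levels and Clopper-Pearson for shares and ratios, on counts divided by 2, because 65.2% to 68% of nonzero counts were even, so that pairs may have been counted as 2 reads. They cover counting error only and compare libraries. Positions, lengths and GC came from GENCODE 29, which matched 62696 of 62696 identifiers. Smooth trends on length and GC were removed by lowess (span 0.3). edgeR and DESeq2 1.42.0 gave numbers of calls only. The rule for calls, edgeR's test and the removal of trends were tested on simulated data that held no outlying library. The other steps across genes were not.

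Genes outside the 10 are named if they belong to the pathway lists and were called or at 0 counts in a library, as copies of TDGF1, or by likeness to NODAL; others were picked after their values were seen. The 10 genes and the pathway and marker lists were chosen with earlier results of these data known, and support nothing as independent evidence. An item of the pathway lists enters the counts but is not reported here.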

Additional observations from a re-analysis of the deposited data

How the results depend on the processing

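No paired analysis was possible because only 1 library carries the empty vector, without a replicate number. Scalings (DESeq2 size factors, total counts, upper quartile) and prior counts of 0.5 and 5 changed no count of calls by more than 1.5 times. The number of genes called higher and lower over all genes, 580 and 432, was 378 and 282 with length and GC trends removed, 1605 and 1035 at a mean CPM of 0.1, 377 and 254 at a mean CPM of 5, 1590 and 1526 at 1.5-fold, and 1356 and 1074 on the mean of the 3 libraries. Leaving out 1 library labelled knockdown gave 615 to 1542 higher and 485 to 846 lower, the highest without replicate 3. Among the 10 genes, LEFTY2 was called in every setting, none of which changed the division of reads between LEFTY1 and LEFTY2. CER1 joined LEFTY2 on the mean of the 3 libraries, for 2 calls, and leaving out 1 library gave 1 to 2 calls higher and 0 lower. Of the other 33 pathway genes, 10 were higher and 1 lower at 1.5-fold, beside 1590 and 1526 of 15880 genes. On the mean 6 were higher and 1 lower, beside 1356 and 1074 of 15880 genes. After trend removal with median transcript lengths, an alternative added after the data were seen, 1 was higher, beside 393 of 15485 genes. Leaving out 1 library gave 2 to 4 higher and 0 to 1 lower; without replicate 2, EOMES and GATA6 joined, and without replicate 3, FGF4 joined and GDF3 was called lower. The mean log2 difference of LEFTY1 was -0.38 to 0.91 and that of FOXH1 -0.08 to 0.47 over omitted libraries. edgeR's test gave 0 calls over all genes with RLE factors and with no filter on low counts (3087 and 3256 at an unadjusted p under 0.05), and the Wald test of DESeq2 gave 271. The LEFTY1 share averaged 41.3% over the libraries labelled knockdown, and 35.4% to 52.7% with 1 left out. At 32 to 61 counts for NODAL and 8 to 10 for CER1 in the low libraries, depth limits what can be said of them.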
